A study of Mus musculus with 2 samples.

Results

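Genes of fat breakdown and fat storage were followed in whole omentum after ablation of Postn-expressing stromal cells. They were 10 of 24346 gene symbols in the files, chosen by symbol as lipases, their regulators and the proteins that coat lipid droplets. The rule used no measured value. All 10 were listed above 0 in both libraries and passed the minimum of a mean FPKM of 1 that left 13127 genes to compare. FPKM divides the fragments of a gene by its transcript length and by library depth, so levels of different genes can be set side by side.

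The omentum is a fold of peritoneal fat with milky spots, which are clusters of lymphocytes and macrophages held by stromal cells. The genotypes were WT and Postn-DTR, with 1 library each. Postn-DTR mice are heterozygotes in which a diphtheria toxin receptor cassette sits in 1 copy of Postn, so that cells using this promoter die when diphtheria toxin (DT) is given. Both genotypes received DT, and both libraries were made 5 days later. The study used this allele to remove Aldh1a2+ fibroblastic reticular cells of the milky spots, but Postn is also used by mesenchymal cells of other organs, and the study saw an enlarged cecum in some Postn-DTR mice after DT. Age, sex and the number of mice behind each library were not given in the sources used here. With 1 library per genotype there was no spread between replicates, no test and no p-value, and each difference describes these 2 libraries.

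White adipocytes store triglyceride in 1 large droplet and release it as fatty acids when food is scarce or stress hormones are high. Adipose triglyceride lipase, encoded by Pnpla2, takes off the first fatty acid, hormone-sensitive lipase, encoded by Lipe, the next, and monoacylglycerol lipase, encoded by Mgll, the last. Perilipins and CIDE proteins coat the droplet and control the access of lipases to it. Perilipin 1 is the coat of adipocytes, whereas perilipin 2 is found on the droplets of most cell types, macrophages included.

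Differences ran in opposite directions within the lipases and within the coat proteins. Among lipases, Pnpla2 was higher in Postn-DTR while Lipe and Mgll were lower. Among coat proteins, Plin2 and Plin5 were higher while Plin1 was lower. The upstream sequence of the 2 pairs that moved apart is printed first, Pnpla2 with Lipe and Plin2 with Plin1, so that the letters can be read beside the levels. Sequences are from RefSeq on GRCm38.p6, read 5′ to 3′ on the strand of the gene, and were limited to bases before the start site that no annotated exon covers. They lie at chr7:141454938-141455187 on the plus strand for Pnpla2, and on the minus strand at chr7:25390113-25390351 for Lipe, chr4:86670061-86670309 for Plin2 and chr7:79732904-79733026 for Plin1. Lipe has 2 windows, and the stretch shown lies before its downstream start, since annotated exons cover the bases before the other. Capitals mark matches to the motifs described after the sequences.
Pnpla2: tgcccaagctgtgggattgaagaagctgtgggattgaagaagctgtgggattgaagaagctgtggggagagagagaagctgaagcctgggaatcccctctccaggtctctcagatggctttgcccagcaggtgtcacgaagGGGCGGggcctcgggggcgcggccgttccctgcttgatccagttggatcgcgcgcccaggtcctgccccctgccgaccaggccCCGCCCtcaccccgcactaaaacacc
Lipe: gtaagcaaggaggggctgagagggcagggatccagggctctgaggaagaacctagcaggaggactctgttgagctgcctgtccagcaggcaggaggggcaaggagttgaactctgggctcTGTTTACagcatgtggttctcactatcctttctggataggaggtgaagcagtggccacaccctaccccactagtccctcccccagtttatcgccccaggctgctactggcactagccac
Plin2: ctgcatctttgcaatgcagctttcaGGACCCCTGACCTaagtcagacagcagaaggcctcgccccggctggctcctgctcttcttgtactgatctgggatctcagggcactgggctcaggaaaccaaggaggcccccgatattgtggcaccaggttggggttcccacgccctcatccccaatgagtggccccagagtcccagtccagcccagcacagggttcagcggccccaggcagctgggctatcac
Plin1: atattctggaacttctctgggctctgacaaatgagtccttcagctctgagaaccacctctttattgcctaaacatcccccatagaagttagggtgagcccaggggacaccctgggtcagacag

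Windows of 250 bases before and 50 bases after the start were found for all 10 genes, 14 windows in all, and were searched on both strands for 6 motifs. A DR1 element, here AGGTCA and a second AGGTCA with 1 base (N) between them and up to 2 mismatches, is the kind of site bound by PPAR with RXR. Of 32851 mouse windows 3.86% held one, and of the 14 windows 1 did, that of Plin2, with its match at 225 bases before the start (position -225). The FOXO motif GTAAACA was in 3.65% of all windows and in 2 of the 14, those of Lipe at -119 and Mgll at -241. The core of the hypoxia response element, ACGTG, was in 19.6% of all windows and in 4 of the 14, from Plin2, Lipe and Mgll, of which the Plin2 match crosses the end of the printed stretch. The GC box GGGCGG was in 35.7% of all windows and in 9 of the 14, from 7 genes. The C/EBP palindrome TTGCNNCAA and the TATA box TATAAA, in 2.08% and 13.6% of all windows, matched none of the 14. The printed Plin1 stretch has no capitals, since its window held none of these motifs. A match describes letters only, and says nothing about whether a factor binds there.

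The targeted gene was checked first. Postn was at 58.3 FPKM in the WT library and at 16.2 in the Postn-DTR library. The cassette sits in the first coding exon of 1 Postn copy. Fewer Postn-expressing cells and less Postn RNA from that copy cannot be told apart here. Total FPKM was 542190 in WT against 671882 in Postn-DTR, and spacing of low values placed the libraries at about 23500000 and 24000000 fragments. Of the 10 genes, Plin5 rested on the fewest fragments, about 147 in WT and 341 in Postn-DTR. The others had about 1910 to 28850 if each is counted at its longest coding transcript. Over all genes compared, 410 were at least 2-fold lower in Postn-DTR and 509 at least 2-fold higher on the log2(FPKM + 1) scale, so that higher genes made up 55.4% of them. A list of pancreatic acinar genes summed to 12727 FPKM in WT and 21.6 in Postn-DTR. That sum was a small part of the WT total of 542190 FPKM. When the acinar genes were removed and the unequal totals were also made equal, higher genes made up 28.0%, and the median change of all genes moved by -0.30. A change of that size in a single gene cannot be told apart from a change of scaling.

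The 10 genes together had nearly the same summed FPKM, 2040 in WT and 2194 in Postn-DTR, or 0.376% and 0.327% of all FPKM. Changes are given as log2(FPKM + 1) in Postn-DTR minus WT. The median change of the 10 was 0.12, against 0.02 over all genes compared, and ranged from -0.997 for Lipe to 1.22 for Plin2. As deposited 7 were higher and 3 lower, but 3 were higher and 7 lower at equal totals. The median of the 10 was then -0.22, against -0.29 for all genes. At least 2-fold higher was 1 of the 10 genes, Plin2, against 3.88% of all genes. At least 2-fold lower were 0 of 10, against 3.12% of all genes. Just under this limit lay Lipe and Plin5, with changes of -0.997 and 0.977. On the plain ratio of FPKM, a scale added after the data were seen, 1 of 10 genes was at least 2-fold lower (Lipe), against 5.20% of all genes, and 2 were at least 2-fold higher (Plin2 and Plin5), against 5.04%. At 1.5-fold on the log2(FPKM + 1) scale, 3 of 10 were lower (Lipe, Mgll and Plin1), against 8.84% of all genes, and 2 were higher, against 9.86%.

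**Figure D1:**
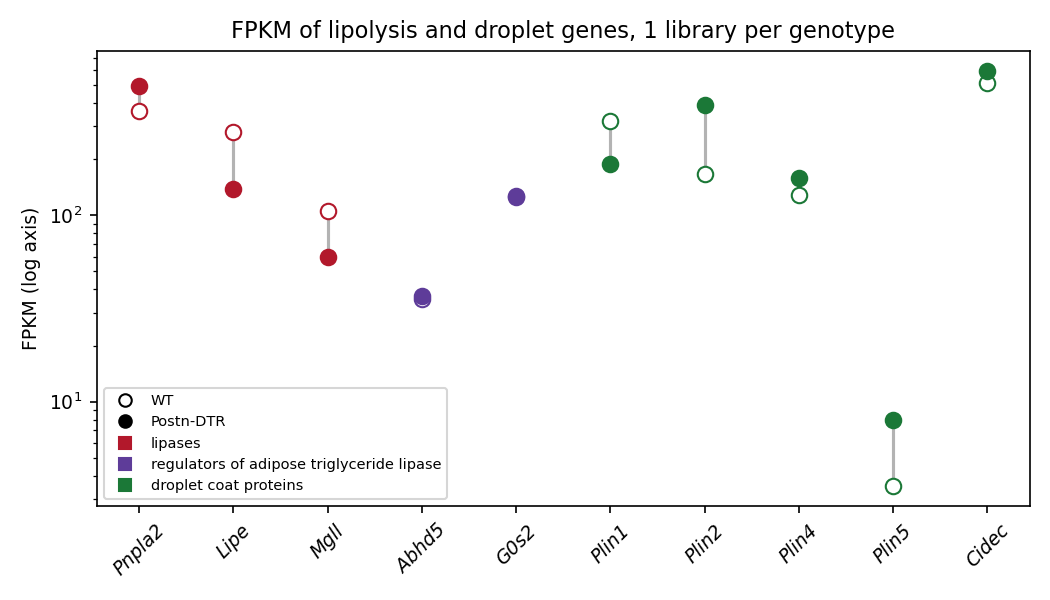
FPKM of each of the 10 genes on a log axis, with an open circle for the WT library and a filled circle for the Postn-DTR library, 1 library per genotype. The pair of circles is farthest apart for Plin2 (166.6 and 390.1), Plin5 (3.54 and 7.93) and Lipe (278.8 and 139.2), and overlaps for G0s2 and Abhd5.

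In order of level, Cidec was the highest of the 10 in both libraries, followed by Pnpla2. In WT the next were Plin1, Lipe, Plin2, Plin4, G0s2, Mgll, Abhd5 and Plin5. In Postn-DTR, Plin2 moved from the 5th to the 3rd place, and Lipe from the 4th to the 6th. The other changes of place were those of Plin1, from 3rd to 4th, and Plin4, from 6th to 5th. How far neighbours in this order would overlap between mice is not known, since there was no spread to set them against.

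The lipases were examined one by one. Pnpla2 (ENSMUSG00000025509, chr7:141455198-141460743, plus strand, GRCm38) was at 362.3 FPKM in WT against 494.9 in Postn-DTR. It was 1.37-fold higher, a change of 0.45, and 14.6% of all genes compared had a more positive one. It remained higher under each of the scalings tried, down to 0.11 at equal totals. By level, it stood at rank 212 of all genes in WT and 189 in Postn-DTR.

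Lipe (ENSMUSG00000003123, chr7:25379527-25398710, minus strand) was at 278.8 FPKM in WT against 139.2 in Postn-DTR. It was 2.004-fold lower, and 3.12% of all genes compared had a more negative change. It went from rank 280 to rank 641 among all genes. Mgll (ENSMUSG00000033174, chr6:88724412-88828360, plus strand) was at 105.2 FPKM in WT against 59.7 in Postn-DTR. It was 1.76-fold lower, with a change of -0.81, and 4.73% of all genes had a more negative one. The enzymes of the later steps were thus both lower, and both were so under each scaling, but the size depended on it. The changes were -1.34 (Lipe) and -1.15 (Mgll) at equal totals. Relative to the median of adipocyte genes, given below, they were only -0.31 and -0.12.

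Ratios between genes of the same library do not depend on how the libraries are scaled to each other. The FPKM of Pnpla2 was 1.30 times that of Lipe in WT and 3.56 times in Postn-DTR, a 2.74-fold shift. Against Mgll, Pnpla2 stood at 3.45 times in WT and 8.29 times in Postn-DTR. The ratio of Mgll to Lipe was closer between the libraries, at 0.377 and 0.429. Of the summed FPKM of the 3 lipases, which was 746.2 in WT and 693.7 in Postn-DTR, Pnpla2 made up 48.5% in WT and 71.3% in Postn-DTR. The share of Lipe was 37.4% and 20.1%, and that of Mgll 14.1% and 8.60%.

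The regulators of adipose triglyceride lipase differed little. Abhd5 encodes CGI-58, the coactivator of this lipase, which perilipin 1 holds at the droplet until lipolysis is switched on. Abhd5 (ENSMUSG00000032540, chr9:122351608-122381524, plus strand) was at 35.7 FPKM in WT against 36.8 in Postn-DTR, with a change of 0.04 that turned to -0.035 with upper quartile scaling and -0.29 at equal totals. G0s2 encodes an inhibitor that binds the same lipase. G0s2 (ENSMUSG00000009633, chr1:193272161-193273217, minus strand) was at 124.8 FPKM in WT against 126.2 in Postn-DTR, with a change of 0.02 that turned to -0.0029 with centring on the median, -0.061 with upper quartile scaling and -0.33 at equal totals. Both changes lay near the middle of all genes, with 47.7% of them more positive than Abhd5 and 50.3% more positive than G0s2. Inhibitor and coactivator kept nearly the same proportion, G0s2 at 3.49 times Abhd5 in WT and 3.43 times in Postn-DTR. Against their target both were lower in Postn-DTR. G0s2 was at 0.345 of the FPKM of Pnpla2 in WT and 0.255 in Postn-DTR, and Abhd5 at 0.0986 and 0.0743.

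The perilipins changed in composition. Plin1 (ENSMUSG00000030546, chr7:79720218-79732903, minus strand) was at 321.5 FPKM in WT against 189.1 in Postn-DTR. It was 1.70-fold lower, a change of -0.76, and 5.36% of all genes had a more negative one. Plin2 (ENSMUSG00000028494, chr4:86648386-86670060, minus strand) was at 166.6 FPKM in WT and rose to 390.1 in Postn-DTR. It was 2.34-fold higher, a change of 1.22 that was 0.88 at equal totals, and 2.55% of all genes had a more positive one. By level it went from rank 460 to rank 234, and Plin1 from rank 244 to rank 456. In WT the FPKM of Plin2 was 0.518 of that of Plin1, and in Postn-DTR it was 2.06 times it, a 3.98-fold shift.

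Plin4 and Plin5 are neighbours on chromosome 17, both on the minus strand and 1797 bp apart. Perilipin 4 is abundant in white fat, and perilipin 5 is best known from heart, muscle and brown fat, where it links droplets to mitochondria. Plin4 (ENSMUSG00000002831, chr17:56100591-56109803) was at 128.6 FPKM in WT against 158.6 in Postn-DTR, with a change of 0.30 that turned to -0.040 at equal totals. Plin5 (ENSMUSG00000011305, chr17:56111601-56117596) was the scarcest of the 10, at 3.54 FPKM in WT against 7.93 in Postn-DTR. It was 2.24-fold higher. The 95% interval of this ratio, exact (Clopper-Pearson) from the estimated fragments, was 1.84 to 2.74 and covers counting error only. The FPKM of Plin4 was 36.3 times that of Plin5 in WT and 20.0 times in Postn-DTR.

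Plin3, the remaining perilipin, is a cytosolic protein of many tissues that binds nascent droplets. Plin3 is not 1 of the 10 genes and was at 38.0 FPKM in WT against 34.3 in Postn-DTR. With it included, the 5 perilipins summed to 658.2 FPKM in WT against 780.1 in Postn-DTR. Plin1 made up 48.8% of this sum in WT and 24.2% in Postn-DTR, and Plin2 25.3% and 50.01%. The shares of the others were closer, at 19.5% and 20.3% for Plin4, 5.78% and 4.39% for Plin3, and 0.538% and 1.02% for Plin5.

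**Figure D2:**
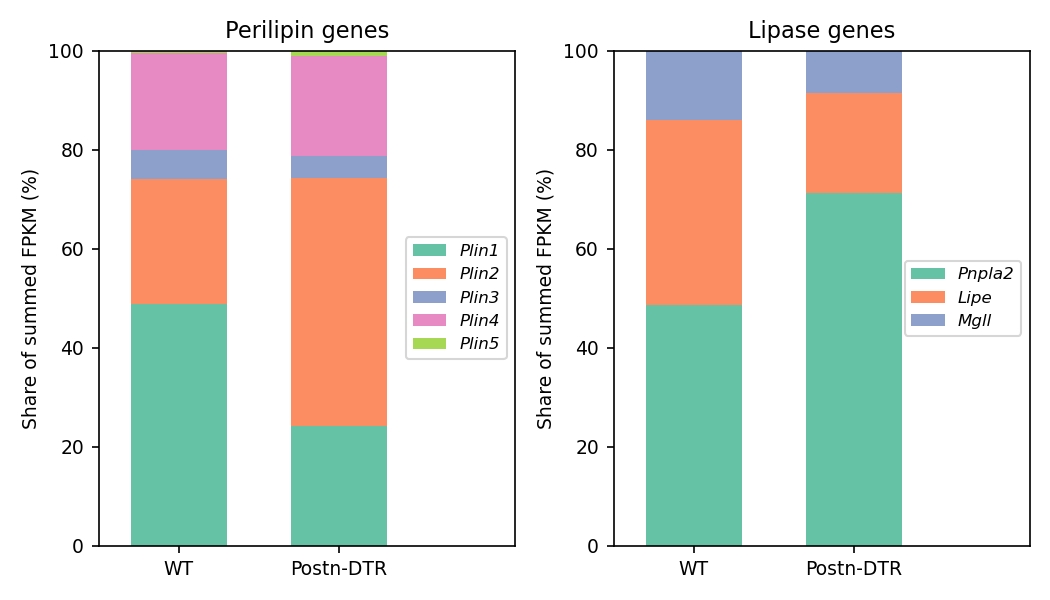
Stacked bars of the share of summed FPKM, in percent, taken by each of the 5 perilipin genes (left) and the 3 lipase genes (right) in the WT and the Postn-DTR library. Plin1 goes from 48.8% to 24.2% and Plin2 from 25.3% to 50.01%, and Pnpla2 from 48.5% to 71.3% of the lipases.

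Cidec encodes the droplet protein that lets small droplets pass their lipid to larger ones, as in the single large droplet of white adipocytes. Cidec (ENSMUSG00000030278, chr6:113424634-113435760, minus strand) was at 512.8 FPKM in WT against 591.5 in Postn-DTR. Its change of 0.21 turned to -0.14 at equal totals. It did not follow Plin1, which is also a coat of adipocyte droplets. The FPKM of Cidec was 1.60 times that of Plin1 in WT and 3.13 times in Postn-DTR, and 3.08 times and 1.52 times that of Plin2.

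**Figure D3:**
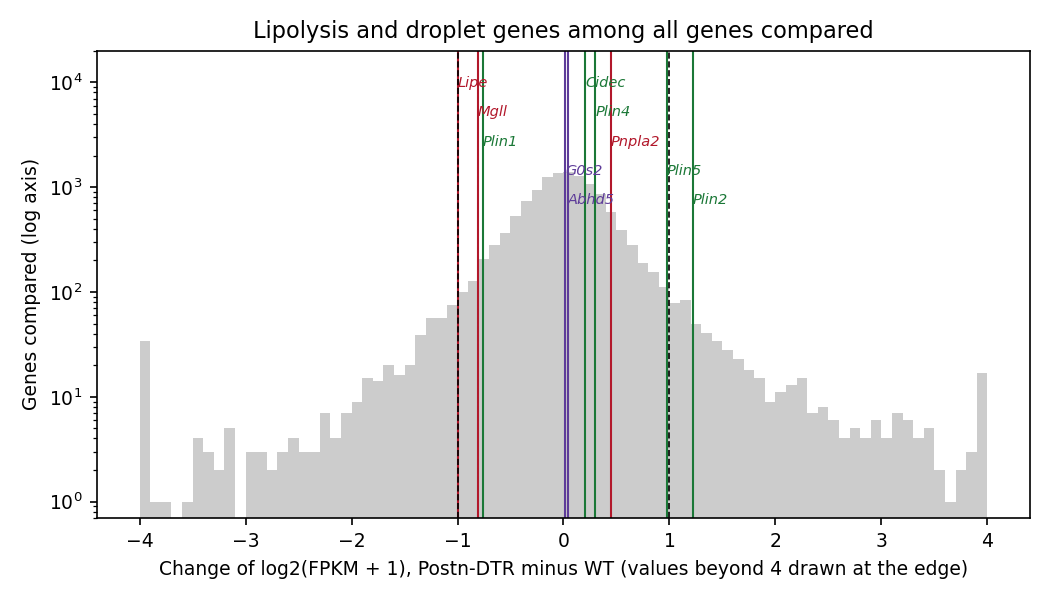
Histogram of differences in log2(FPKM + 1) between Postn-DTR and WT (above 0, higher in Postn-DTR) over the 13127 genes compared, on a log count axis, with a vertical line for each of the 10 genes and dashed lines at 2-fold. Values beyond the axis are drawn at its edge. From the 5th to the 95th percentile the changes of all genes reach from -0.79 to 0.87. Plin2, Plin5, Lipe and Mgll lie outside this range, and Plin1, at -0.76, just inside it.

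In whole tissue, fewer cells of a type and less RNA per cell cannot be told apart. The levels were therefore set beside markers of the cell types that the omentum holds. Markers of adipocytes were abundant, with Fabp4 at 4879 and 6519 and Adipoq at 955.2 and 635.9. Of 7 brown or beige fat markers 3 passed the minimum and all 3 were lower in Postn-DTR, with Cox8b at 113.7 and 31.8, while Ucp1 was at 0.0595 and 0.288 and Zic1 was listed at 0 in both. Of 14 adipocyte genes 12 were lower in Postn-DTR and 4 at least 2-fold lower, against 3.12% of all genes compared. Their median change was -0.69, their summed FPKM was 19865 in WT and 16517 in Postn-DTR, and none was at 0. Relative to that median the changes of Lipe, Mgll and Plin1 were -0.31, -0.12 and -0.08. The other 7 genes lay above it, by 0.73 (Abhd5), 0.70 (G0s2), 0.89 (Cidec), 0.99 (Plin4), 1.13 (Pnpla2), 1.66 (Plin5) and 1.91 (Plin2). The median of all genes compared also lay 0.70 above it, so Abhd5 and G0s2 stood near the middle of all genes. Measured against Adipoq alone, an adipocyte hormone, Plin1 stood at 0.337 in WT and 0.297 in Postn-DTR, whereas Pnpla2 stood at 0.379 and 0.778. The part of adipocyte content in these differences was not tested.

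**Figure D4:**
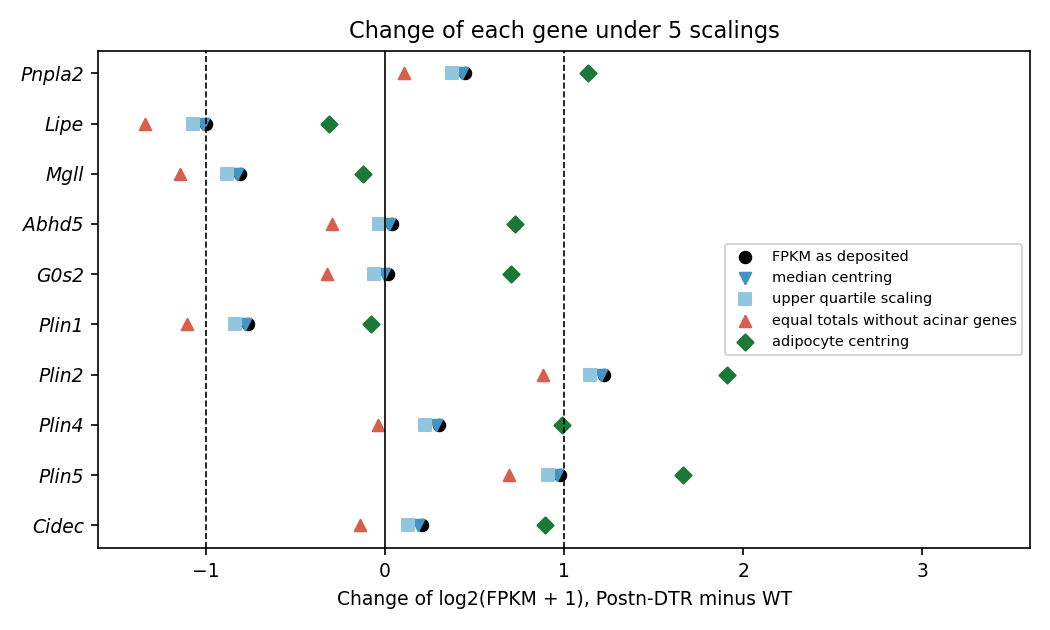
Difference in log2(FPKM + 1) between Postn-DTR and WT (above 0, higher in Postn-DTR) for each of the 10 genes under 5 scalings, with dashed lines at 2-fold. Lipe, Mgll and Plin1 are below 0 and Pnpla2, Plin2 and Plin5 above 0 under all 5, whereas Abhd5, G0s2, Plin4 and Cidec turn below 0 at equal totals, and Abhd5 and G0s2 also with upper quartile scaling and G0s2 with centring on the median.

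Macrophage markers were higher, as Plin2 was. All 8 of them were higher in Postn-DTR and 4 at least 2-fold higher, against 3.88% of all genes compared, with a median change of 1.33. Their summed FPKM was 2878 in WT and 4819 in Postn-DTR, and none was at 0. The study itself counted macrophages of the omentum 5 days after DT, and reported no change in their number. Cd68, a lysosomal protein of macrophages, was at 113.8 and 369.4, and the FPKM of Plin2 was 1.46 times that of Cd68 in WT and 1.06 times in Postn-DTR. Other markers gave other pictures, since their folds ran from 1.38 (Csf1r) to 6.84 (Cd14), against 2.34 for Plin2. Csf1r, Lyz2, Fcgr1 and Mertk rose less than Plin2, and Adgre1, Cd68, Itgam and Cd14 rose more. Of 6 genes linked to lipid-laden macrophages 4 were higher, 3 of them at least 2-fold, with Trem2, a lipid-sensing receptor, at 40.5 and 145.6 and Gpnmb at 5.60 and 44.2. The other 2, Fabp5 (199.6 and 86.3) and Cd36 (308.9 and 244.3), are fatty acid carriers that adipocytes also make. Their 6 levels summed to 719.5 and 879.5, with none at 0. G0s2 is also abundant in neutrophils, and of 9 neutrophil genes 6 were higher and 3 lower, with a median change of 0.99. At least 2-fold higher were 4 of them, Csf3r, Cxcr2, Mmp8 and Retnlg, against 3.88% of all genes. At least 2-fold lower were 2, Camp and Ngp, against 3.12%. The list had a sum of 456.0 in WT and 732.4 in Postn-DTR and none at 0. The part of these cells in the levels of Plin2 and G0s2 was not tested.

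Lymphocyte markers were lower, with 6 of 6 B cell genes (sum 491.5 and 350.1) and 7 of 7 T cell genes (sum 95.4 and 43.0), and mesothelial genes were split, with 2 of 5 lower and sums of 467.6 and 473.7. None of these genes was at 0.

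Other genes of the pathway were taken from 5 lists. All 44 genes were found and 40 passed the expression minimum. At least 2-fold lower were 8 of these 40, against 3.12% of all genes, and at least 2-fold higher were 2, against 3.88%. These counts moved with the scaling, as those of all genes did. At equal totals 11 were lower and 2 higher, against 787 and 306 of 13130 genes. Relative to the adipocyte median 2 were lower and 6 higher, against 131 and 2910 of 13127 genes. At any size 23 were lower and 17 higher, at equal totals 34 and 6, and relative to the adipocyte median 11 and 29. Of the listed genes 4 are also adipocyte markers. The median change of the 40 was -0.15, against 0.02 for all genes. It was -0.47 against -0.29 at equal totals, and 0.54 against 0.70 relative to the adipocyte median.

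Among other lipases and esterases 1 of 8 was at least 2-fold lower, against 3.12% of all genes, and none at least 2-fold higher, against 3.88%. That gene was Pnpla3, a close relative of Pnpla2, whose product sits on droplets and is known to bind CGI-58. Pnpla3 fell from 78.28 to 17.998, which was 4.35-fold lower. The carboxylesterase Ces1d, a triglyceride hydrolase of adipocytes, was at 187.5 and 196.7, and Lipa, the acid lipase of lysosomes, at 51.1 and 60.2. The remaining 5, Pnpla7, Ces1f, Abhd6, Ddhd2 and Ldah, had changes from -0.46 to 0.54.

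Among other droplet proteins 1 of 9 compared was at least 2-fold higher, against 3.88% of all genes, and none at least 2-fold lower, against 3.12%. Hilpda, which encodes another inhibitor of adipose triglyceride lipase and is induced by hypoxia and by fatty acids, rose from 8.11 to 37.2, or 4.58-fold. The 2 listed inhibitors of this lipase thus had different values, with G0s2 at 124.8 and 126.2. Cidea, a relative of Cidec typical of brown fat, was at 4.46 and 1.897. Bscl2, which encodes the seipin of droplet assembly, was at 179.5 and 160.1, and Ldaf1, a partner of seipin, at 21.5 and 24.4. Cideb and Fitm1 were under the expression minimum.

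Lipolysis is switched on by cAMP through protein kinase A, which phosphorylates hormone-sensitive lipase and perilipin 1. In this arm 3 of 11 genes were at least 2-fold lower, against 3.12% of all genes, and none at least 2-fold higher, against 3.88%. Adrb3, the adrenergic receptor of adipocytes, fell from 76.2 to 15.4, or 4.95-fold. Prkar2b, the regulatory subunit of the kinase in adipocytes, fell from 38.9 to 15.1, and Hcar2, a receptor that restrains lipolysis, from 11.2 to 4.28. Pde3b, the phosphodiesterase through which insulin lowers cAMP, was at 19.9 and 12.2. The catalytic subunit gene Prkaca was at 62.8 and 36.0. The median of this list was -0.36. Relative to the adipocyte median it was 0.33, against 0.70 for all genes. At least 2-fold lower was then 1 gene, Adrb3, against 131 of 13127 genes. Adrb3 is also 1 of the 14 adipocyte genes behind that median.

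Genes that handle the products of lipolysis were lower in 6 of 8, with 3 at least 2-fold lower, against 3.12% of all genes. Gpd1, which makes the glycerol phosphate for re-esterification, fell from 357.9 to 128, Fabp5 from 199.6 to 86.3, and Aqp7, the glycerol channel of adipocytes, from 13.2 to 5.68. Fabp4, the main fatty acid carrier of adipocytes, was at 4879 and 6519, and Pck1, an enzyme of glycerol synthesis, at 138.6 and 138.0. The list median was -0.55. Relative to the adipocyte median it was 0.14, against 0.70 for all genes, with 0 genes at least 2-fold lower, against 131 of 13127 genes. At least 2-fold higher was then 1 gene, Fabp4, against 2910 of 13127 genes. Fabp4 is also 1 of the 14 adipocyte genes behind that median.

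Of the transcription factors that act on lipolysis genes 4 passed the minimum. Pparg, the master regulator of adipocytes, fell from 59.1 to 27.3. Cebpb, which is induced in inflammation and early adipocyte formation, rose from 39.0 to 110.3. Relative to the adipocyte median none of the 4 was at least 2-fold lower, against 131 of 13127 genes. Cebpa was at 134.4 and 105.7, and Foxo1, which induces Pnpla2 when insulin is low, at 21.3 and 23.5.

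**Figure D5:**
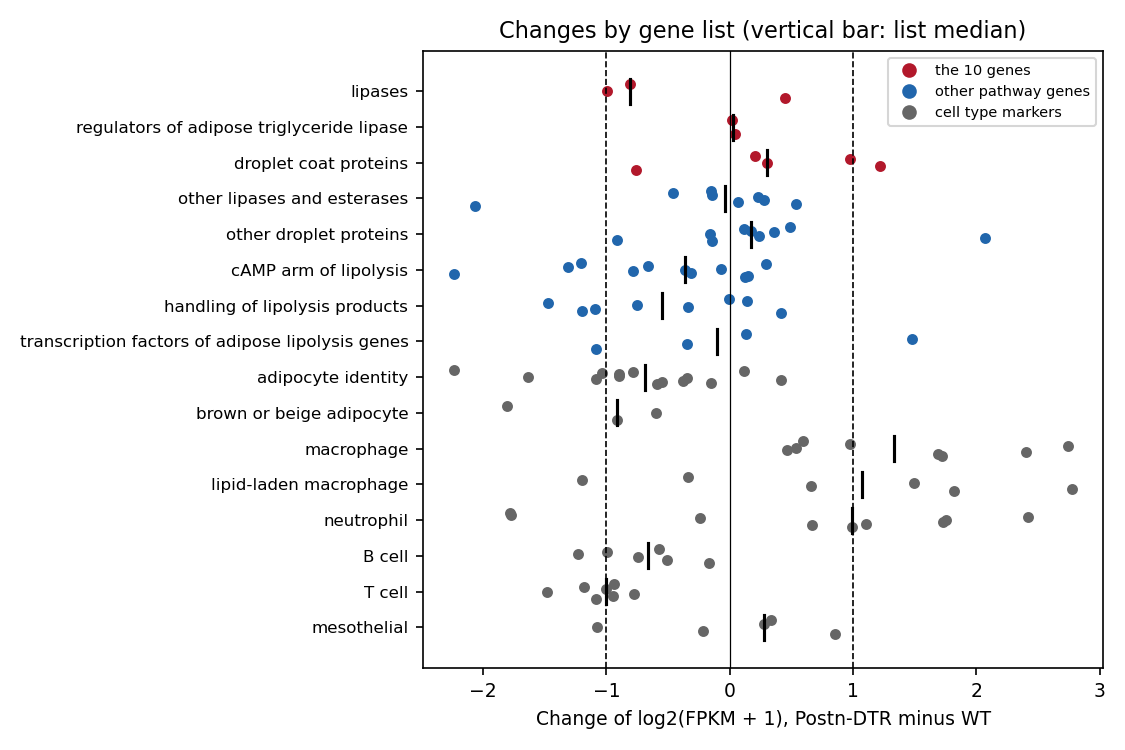
Difference in log2(FPKM + 1) between Postn-DTR and WT (above 0, higher in Postn-DTR) for each gene compared, by list, with a black bar at the list median and dashed lines at 2-fold. Red points are the 10 genes, blue points other pathway genes and grey points cell type markers. The macrophage points are all above 0, while 12 of 14 adipocyte points are below it.

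Exons of 4 of the 10 genes overlap exons of a gene on the opposite strand. The library kit keeps the strand, but whether counting used it was not given in the sources used here. The partner of Lipe, 4732471J01Rik, was at 2.66 and 2.91, and that of Abhd5, A730085K08Rik, at 0.236 in WT and listed at 0 in Postn-DTR. That of Plin4, Hdgfl2 (under its older symbol Hdgfrp2), was at 25.4 and 24.2. The partner of Mgll, Gm26588, was not matched to a listed gene symbol, so it has no level here.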

How the data were processed

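RNA was measured in whole omentum from 1 WT and 1 Postn-DTR library, grouped by the genotype label. Per the labels, a miRNeasy kit served for total RNA and the TruSeq stranded mRNA kit for sequencing libraries. The authors deposited FPKM, 1 value per gene symbol, and no replicate or count. The submitters' processing notes name TopHat2 2.1.1, Bowtie2 2.2.8, SAMtools 0.1.18, Cuffdiff 2.2.1 and mm10. The annotation and counting settings were not given in the sources used here.

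Changes were computed as log2(FPKM + 1), Postn-DTR minus WT, where mean FPKM over both libraries reached 1, and counted at 2-fold. A pseudocount of 1 understates changes of low genes such as Plin5. Folds quoted for single genes are plain FPKM ratios. Depth was estimated from the spacing of low FPKM in genes with 1 annotated transcript, where 78.5% (WT) and 78.1% (Postn-DTR) of low values lay within 0.1 of a whole read. These shares come from the values that set the depth. Gene positions were from GENCODE M21 (GRCm38, the assembly that mm10 names), and 3 list genes were matched under another symbol, 2 through RefSeq synonyms and Ldaf1 under its older symbol Tmem159. The genes and lists were chosen with earlier results of these data known. Named genes were the 10 genes, members of the lists, Postn and genes with overlapping exons. The further genes given under other observations were chosen after their values were seen. The calculation was tested on simulated data. Alternatives changed the pseudocount, the FPKM minimum, the scaling and the fold. Python 3.11.15, numpy 2.4.6, pandas 2.3.3, scipy 1.17.1 and matplotlib 3.10.9 were used.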

Additional observations from a re-analysis of the deposited data

How the results depend on the processing

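The directions of Lipe, Mgll and Plin1 (lower) and of Pnpla2, Plin2 and Plin5 (higher) were the same under all alternatives that gave a value for them. The smallest values were -0.08 (Plin1) and -0.12 (Mgll) with adipocyte centring, and 0.11 (Pnpla2) at equal totals. These are smaller in size than the -0.30 by which equal totals moved the median of all genes, so these directions are not settled. With the FPKM minimum at 10, Plin5 was no longer compared, and at 50 neither was Abhd5. Of 10 genes, the number at least 2-fold lower was 0 as reported, with counts over all genes in brackets (410 of 13127). It was 1 with a pseudocount of 0.1 (643), median centring (434), upper quartile scaling (480 of 13132) and the plain ratio (682). The plain ratio was added after the data were seen. It was 3 at equal totals (787 of 13130) and at 1.5-fold (1160). The number higher was 1 as reported (509). It was 2 with a pseudocount of 0.1 (642), at 1.5-fold (1294) and on the plain ratio (661). It was 3 with adipocyte centring (2910), and 0 at equal totals (306 of 13130) and at 3-fold (199). The median of the 10 turned to -0.22 at equal totals, where that of all genes was -0.29. Single changes turned to -0.035 and -0.29 (Abhd5, upper quartile scaling and equal totals), -0.0029, -0.061 and -0.33 (G0s2, median centring, upper quartile scaling and equal totals), -0.14 (Cidec) and -0.040 (Plin4), both at equal totals.

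Medians of pathway lists turned to 0.33 (cAMP arm), 0.14 (lipolysis products), 0.65 (other lipases) and 0.58 (transcription factors) with adipocyte centring, to -0.16 (other droplet proteins) at equal totals, to 0.069 and 0.15 (other lipases) with minimums of 10 and 50, and to 0.57 (transcription factors) with a minimum of 50. Equal totals moved the median of all genes by -0.30, and adipocyte centring moved it by 0.69 by construction.

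Over all genes, the 410 lower became 643 and 168 with pseudocounts of 0.1 and 5, 173 and 62 with minimums of 10 and 50, 787 at equal totals, 131 with adipocyte centring, 1160 and 153 at 1.5-fold and 3-fold, and 682 on the plain ratio. The 509 higher became 287 with a pseudocount of 5, 303 and 134 with minimums of 10 and 50, 306 at equal totals, 2910 with adipocyte centring, and 1294 and 199 at 1.5-fold and 3-fold. Stricter choices lower a count by construction, and the cause of the other shifts was not tested. No paired analysis was possible because each genotype had 1 library, and none could be left out.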

Other observations

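Further genes around lipolysis, chosen after their values were seen, are given as values. Of the other patatin-like phospholipases, relatives of Pnpla2, Pnpla6 was at 9.48 FPKM in WT against 8.65 in Postn-DTR and Pnpla8 at 25.0 and 21.3, while Pnpla1 was at 0.221 and 0.136. Abhd15, which encodes a protein that restrains lipolysis in adipocytes, was at 9.10 and 6.74, and Abhd12, a further monoacylglycerol hydrolase, at 55.2 and 76.6. The enzymes that make triglyceride, the reverse of the Pnpla2 step, were unequal, with Dgat2 at 390.8 and 43.2, or 9.05-fold lower, and Dgat1 at 92.9 and 66.3. Pdk4, which spares glucose when fatty acids are burnt, was at 14.3 and 75.9, and Acot1, an acyl-CoA thioesterase, at 1.42 and 6.85. Angptl4, an inhibitor of lipoprotein lipase that fatty acids induce, was at 132.1 and 163.6.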
